A study of Homo sapiens with 12 samples.

Results

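Small nucleolar RNAs (snoRNAs) and small Cajal body RNAs (scaRNAs) were examined in 293T cells, a human embryonic kidney line, that carry a doxycycline-inducible 4EBP1-4A, a form of the translation repressor 4EBP1 whose phosphorylation sites were mutated to alanine. Members were all genes whose symbol begins with SNORA, SNORD or SCARNA and that held 60 or more reads over the 6 RNA-seq libraries. The rule found 126 genes of 58735 in the count table, namely 53 box C/D snoRNAs of 314 by symbol, 58 box H/ACA snoRNAs of 214 and 15 scaRNAs of 25. A further 96 genes of these symbols held 1 to 59 reads and 331 held none. Members were thus chosen by their RNA-seq reads summed over both groups, so their levels are given as a description.

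The 6 cultures of the stable line 293T4A gave 12 libraries, with RNA-seq and ribosome footprints (RF, Ribo-seq) from 3 cultures given DMSO and 3 given doxycycline (Dox, 2 mg/ml as the labels write it). The labels give 12 h of treatment and the series text gives 2 h, and the published text gives a longer time in another place, so the length of induction behind Dox against DMSO is uncertain. All cultures received cycloheximide before lysis. All cells carry the construct, the line is a single stable line, and reads of the construct and of the endogenous gene cannot be told apart. The paper speaks of 3 biological replicates, but the sources do not say how the replicate cultures were separated. The p-values thus measure the spread between these libraries, which may be technical.

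snoRNAs are short nuclear RNAs, most of which are cut out of the introns of host genes. Box C/D snoRNAs assemble with fibrillarin and guide 2′-O-methylation of ribosomal RNA, and box H/ACA snoRNAs assemble with dyskerin and guide pseudouridylation. A few of them, among them U3 (SNORD3), U13 (SNORD13), U14 (SNORD14) and U17 (SNORA73), act in cleavage or folding of the ribosomal RNA precursor or in its other modification, while scaRNAs sit in Cajal bodies and guide modification of spliceosomal RNAs.

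The sequences of the RNAs on which the results turn were read from GRCh38 at the positions of their gene identifiers in GENCODE 44 and are written on the transcribed strand, 5′ to 3′. SNORD3A (chr17:19188016-19188232, plus strand, from the annotated start to 5 bases past box D), SNORD17 (chr20:17962710-17962946, minus strand, in SNX5) and SNORA73B (chr1:28508559-28508762, plus strand, in RCC1) are shown because they held 77.2% of the members' RNA-seq reads, and SCARNA13 (chr14:95533355-95533629, minus strand, in SNHG10) because it led the scaRNAs. Capitals mark TGATGA (box C) and CTGA (box D) in box C/D RNAs and ACA near the 3′ end in the others.
SNORD3A: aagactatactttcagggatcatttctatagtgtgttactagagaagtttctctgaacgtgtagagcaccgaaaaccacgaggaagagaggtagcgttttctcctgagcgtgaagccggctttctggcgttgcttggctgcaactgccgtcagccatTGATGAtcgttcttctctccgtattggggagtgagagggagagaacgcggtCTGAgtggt
SNORD17: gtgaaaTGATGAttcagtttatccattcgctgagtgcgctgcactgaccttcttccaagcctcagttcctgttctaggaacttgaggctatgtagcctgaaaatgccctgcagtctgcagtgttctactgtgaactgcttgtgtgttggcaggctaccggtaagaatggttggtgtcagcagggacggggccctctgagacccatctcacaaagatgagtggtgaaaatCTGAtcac
SNORA73B: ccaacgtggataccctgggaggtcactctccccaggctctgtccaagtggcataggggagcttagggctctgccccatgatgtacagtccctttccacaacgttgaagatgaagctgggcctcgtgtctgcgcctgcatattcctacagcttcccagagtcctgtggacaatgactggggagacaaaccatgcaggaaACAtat
SCARNA13: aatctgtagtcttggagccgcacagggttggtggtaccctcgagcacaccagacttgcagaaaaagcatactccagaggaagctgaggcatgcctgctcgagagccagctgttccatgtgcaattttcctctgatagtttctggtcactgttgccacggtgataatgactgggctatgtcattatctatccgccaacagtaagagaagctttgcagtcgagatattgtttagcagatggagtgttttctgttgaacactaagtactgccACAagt

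SNORA71A (chr20:38427309-38427442), SNORA71C (chr20:38429670-38429803) and SNORA71D (chr20:38433865-38433998), all on the minus strand in SNHG17, are shown because close relatives from 1 host gene differed in the third Dox library. SNORA80E (chr1:155919909-155920045, minus strand, in KHDC4) was the single member called lower when that library was left out, and SNORD101 (chr6:132815307-132815379, plus strand, in RPS12) had the most ribosome footprints.
SNORA71A: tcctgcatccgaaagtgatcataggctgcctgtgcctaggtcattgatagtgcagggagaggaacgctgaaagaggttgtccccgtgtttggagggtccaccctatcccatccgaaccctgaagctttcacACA
SNORA71C: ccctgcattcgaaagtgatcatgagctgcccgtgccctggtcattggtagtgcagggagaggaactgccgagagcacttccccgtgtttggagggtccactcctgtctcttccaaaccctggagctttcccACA
SNORA71D: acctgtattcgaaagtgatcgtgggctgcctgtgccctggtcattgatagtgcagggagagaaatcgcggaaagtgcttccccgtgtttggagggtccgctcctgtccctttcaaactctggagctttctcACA
SNORA80E: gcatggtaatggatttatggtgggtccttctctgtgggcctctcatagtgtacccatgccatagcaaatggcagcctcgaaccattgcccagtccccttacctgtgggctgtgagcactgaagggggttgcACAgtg
SNORD101: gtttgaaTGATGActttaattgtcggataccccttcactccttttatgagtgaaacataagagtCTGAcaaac

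The boxes were searched on the transcribed strand. TGATGA within the first 25 bases was found in 36 of 53 box C/D members (67.9%) and in 172 of the 261 box C/D genes under 60 reads (65.9%). CTGA within the last 15 bases was found in 43 of 53 members (81.1%) and in 231 of 261 genes under 60 reads (88.5%). ACA within the last 8 bases was found in 52 of the 57 box H/ACA members with a sequence (91.2%) and in 123 of 156 under 60 reads (78.8%). These are counts of letters in fixed windows, and a longer annotated gene, such as SNORD3A, can carry its boxes outside them.

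Members and the genes under the threshold differed in where they lie. Of the 125 members with coordinates, 97 lay within a protein-coding gene on the same strand, 20 within a long noncoding RNA gene only and 8 in neither. Where several such genes enclosed a member, a protein-coding gene was named as its host before a noncoding one, and then the shortest. A host is thus given by position, and a noncoding gene at the same place can be the one that yields the RNA. An exon of another gene on the same strand overlapped 25 of the 125 members (20.0%) and 207 of the 427 genes under 60 reads (48.5%). A read that falls on exons of 2 genes is set aside as ambiguous by htseq-count, whose counters the table holds, and the part of this in the threshold was not tested. None of the 118 genes of the imprinted box C/D clusters (SNORD113 and SNORD114 on chromosome 14, SNORD115 and SNORD116 on chromosome 15) was a member, and 116 of them had no read in any RNA-seq library. The symbols SNORD115 and SNORD116 also stand for 4 genes on other chromosomes, 1 of which had reads (30 over the 6 libraries). The members nearest to the threshold were SNORD11B with 60 reads and SNORD105B with 65, and the genes just under it were SNORA19 with 59 and SNORA74C-1 with 58.

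Depth and libraries set limits on every value. Reads on genes in RNA-seq numbered 45887231 to 57824136 in 5 cultures and 21687906 in Dox 3. The counter of alignments that were not unique held 88.4% of all counts in Dox 3, against 54.9 to 69.9% in the other 5. Whether a read with several alignments entered that counter more than once is not known. Ribo-seq libraries held only 210186 to 1002424 reads on genes. EIF4EBP1, the gene of the construct, had 158 ± 8.29 CPM (counts per 1000000 reads on genes) in DMSO and 274 ± 14.3 in Dox (SD, n = 3 each), with every Dox library above every DMSO library (adjusted p = 0.303 with all libraries and 1.1e-05 without Dox 3, edgeR). The 293T list (VIM, KRT8, KRT18, LIN28B, IGF2BP1, NEFM, NEFL) was detected in full at a summed 1483 to 1946 CPM. Lists for other cells were low, with 1.51 to 2.56 CPM over 5 blood genes, 2.35 to 5.63 CPM over 4 keratinocyte genes, of which 2 were at 0, and 9.72 to 26.0 CPM over 4 fibroblast genes, highest in Dox 3, and their part in the results was not tested.

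A few RNAs made up most of the reads. SNORD3A, a gene of the U3 RNA that acts in early pre-rRNA cleavage, held 46.8% of the 667566 member reads, SNORD17 held 22.7% and SNORA73B, a U17 RNA, held 7.69%. The next 4 places went to the scaRNAs SCARNA13 (U93), SCARNA7 (U90), SCARNA5 (U87) and SCARNA6 (U88), with 1.42 to 3.13% each. SNORD17, SNORA73B and SCARNA13 span 237, 204 and 275 bases, beside a median of 84 over box C/D members and 134 over box H/ACA members. The part of RNA length in what the libraries recovered was not tested, so shares, levels and class ratios describe reads, not amounts in the cell. The first 12 genes held 90.0% of the reads, while the median member had 292.5 reads over 6 libraries and 83 of 126 had fewer than 600. Precision followed depth. Over the 3 DMSO libraries the median coefficient of variation was 8.65% for members with 600 or more reads and 17.1% for the others.

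Levels per length in DMSO, in CPM per kilobase of annotated gene, gave the order within each class. Among box C/D RNAs SNORD17 came first with 1882 ± 185, then SNORD3A with 1477 ± 126, SNORD94 with 80.3 ± 3.39 and SNORD15B with 77.2 ± 4.71 (SD, n = 3). SNORD94 and SNORD15B did not differ beyond their spread. The annotated 699 bases of SNORD3A run past the stretch shown above. Where its reads lie within them is not known, so the part of this in its value per length was not tested. Among box H/ACA RNAs SNORA73B led with 926 ± 42.7, followed by SNORA71A with 204 ± 17.2, SNORA74A (U19) with 138 ± 16.1 and SNORA71D with 133 ± 15.6. The last 2 did not differ beyond their spread. Among scaRNAs SCARNA13 had 287 ± 18.6, SCARNA5 164 ± 14 and SCARNA7 155 ± 17, the latter pair again within their spread.

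**Figure D1:**
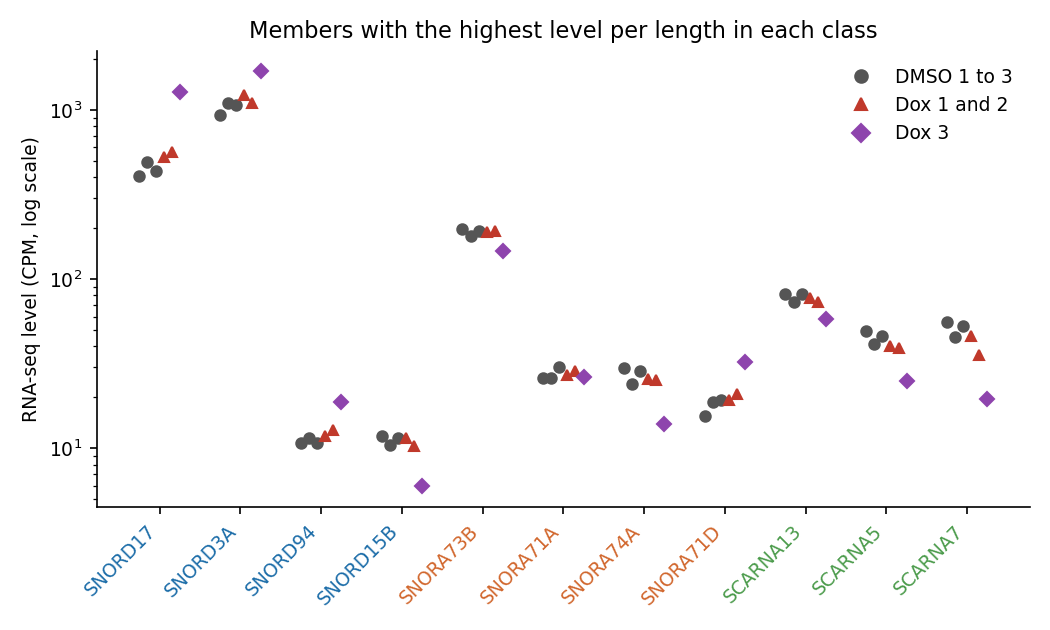
RNA-seq level in CPM (log scale) of the 11 members with the highest level per length in their class, 1 point per library, with gene names in blue for box C/D, orange for box H/ACA and green for scaRNA. SNORD17, SNORD3A, SNORD94 and SNORA71D were highest in Dox 3, whereas SNORD15B, SNORA73B, SNORA74A and the 3 scaRNAs were lowest there.

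The first comparison asked whether induction of 4EBP1-4A went with a change in snoRNA abundance. With all 6 libraries none of the 125 members tested passed edgeR's quasi-likelihood test at an adjusted p under 0.05, in either direction, against a background of 0% of the 20552 genes tested higher and 0% lower. At an unadjusted p under 0.05, 4 members were higher and 8 lower, beside 10.7% and 4.3% of all genes, and DESeq2's Wald test called no member either, beside 0.00487% of all genes higher and 0.00973% lower. The member left untested was SNORD11B, which had 10 reads in only 2 libraries. The median log2 fold change of Dox over DMSO was -0.19 for the 52 box C/D members tested, -0.13 for the 58 box H/ACA members and -0.27 for the 15 scaRNAs, beside 0.003 for all genes. In bulk RNA, fewer cells that hold an RNA and less of it per cell cannot be told apart.

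Both abundant box C/D RNAs were higher in Dox than in DMSO in every library. SNORD17 had 408, 494 and 436 CPM in DMSO and 524, 560 and 1270 in Dox. SNORD3A had 931, 1095 and 1070 CPM in DMSO and 1223, 1096 and 1685 in Dox. The groups did not overlap for either gene, although the second Dox library of SNORD3A lay just above the highest DMSO library, and with Dox 3 in the fit neither was called (log2 0.82 ± 0.33 SE for SNORD17 and 0.37 ± 0.17 for SNORD3A, adjusted p = 0.303 for both, edgeR). Groups did not overlap for 10 members in the higher direction (8%) and 16 in the lower (12.8%), beside 19.7% and 18.9% of all genes tested.

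Among members with a positive fold change over all libraries the smallest p belonged to SNORA71B, SNORA74B and SNORD89, none of which was called (adjusted p = 0.303, edgeR). SNORA74B, an H/ACA RNA of the U19 family, had 8.44, 10.8 and 10.2 CPM in DMSO and 11.7, 13.2 and 21.2 in Dox. SNORA71B had 4.48, 5.48 and 5.37 CPM in DMSO and 6.30, 6.42 and 7.22 in Dox, so its 3 Dox libraries lay close together and above all DMSO libraries. SNORD89 was measured with only 15 to 40 reads a library and its groups overlapped. In the lower direction the smallest p belonged to SNORA80E, SNORD59A and SNORD72, all with at most 61 reads in any library. SNORA80E had 52, 61 and 51 reads in DMSO and 31, 25 and 7 in Dox, SNORD59A had 49, 42 and 39 against 28, 15 and 5, and SNORD72 had 55, 42 and 50 against 32, 14 and 6. All 3 were lower in each Dox library than in each DMSO library, with the lowest value in Dox 3 and adjusted p = 0.303 (edgeR).

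The third Dox library stood apart from the other 2 across the members. It was the lowest of the 6 libraries for 83 of 125 members (66.4%) and the highest for 17 (13.6%), whereas over all genes tested it was the lowest for 41.2% and the highest for 40.3%. Relative to the mean of Dox 1 and Dox 2 on the log2(CPM + 0.1) scale, the median member lay at -0.45 among box C/D RNAs, -0.38 among box H/ACA RNAs and -0.63 among scaRNAs, against -0.006 for all genes. A distance of more than 2-fold below was seen for 28 members (22.4%) and more than 2-fold above for 3 (2.4%), beside 5.03% and 3.96% of all genes. The 3 above were SNORD17, SNORA71C and SNORD105B, and none of the 15 scaRNAs was highest in Dox 3.

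Single members show the size of this. SNORA12 had 5.85, 3.09 and 4.42 CPM in DMSO, 3.29 and 2.42 in Dox 1 and Dox 2, and 0.29 in Dox 3, where it had 7 reads against 156 and 113. SNORA79B, a well-covered H/ACA RNA, had 595 and 521 reads in Dox 1 and Dox 2 and 95 in Dox 3, while reads on genes numbered 47862104, 45887231 and 21687906 in these libraries. SNORD6, SNORD51 and SCARNA18 had no read in Dox 3, where 3 reads, the limit that a count of 0 allows, are worth 0.138 CPM before scaling. Their reads in Dox 1 and Dox 2 numbered 13 to 25. On the other side SNORD17 had 26186 reads in Dox 2 and 30243 in Dox 3, the shallower library, the largest distance above Dox 1 and Dox 2 of any member (2.34-fold).

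The distance of Dox 3 moved with base composition. Over the 125 members with a sequence, Spearman's rho between GC content and the distance was 0.38 (Pearson's r 0.36), over the 43 members with 600 or more reads it was 0.54 (r 0.48), and over 20396 genes of the whole table it was 0.67 (r 0.64). These points share 1 library, so the values are a description. Members of 50% GC or more had a median distance of -0.23 (n = 43) and those under 50% had -0.66 (n = 82), while for all genes the medians were 0.39 and -0.34. The median member thus lay below the median gene in both GC classes, also beside other genes of up to 400 exonic bases (0.11 at 50% GC or more, n = 586, and -0.24 under 50%, n = 412). Length showed no such relation among members (rho 0.03). At the GC content of SNORD17, 49.8%, genes of 48 to 51% GC had a median of 0.05 and a 95th percentile of 0.84, and SNORD17 lay at 1.23. The part of GC content and of the high share of alignments that were not unique in the distance of Dox 3 was not tested.

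**Figure D2:**
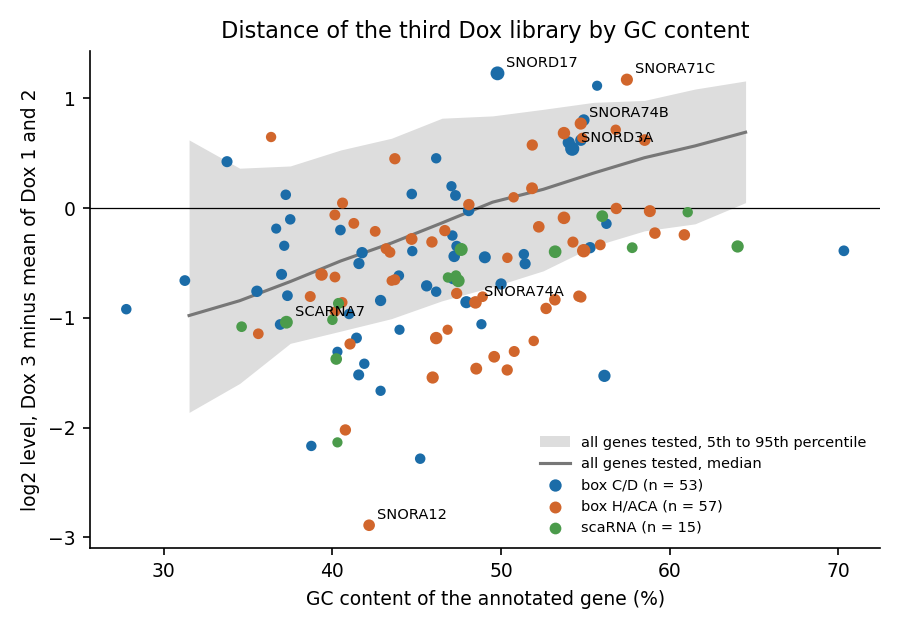
Log2 level in Dox 3 minus the mean of Dox 1 and Dox 2 (y axis) against GC content of the annotated gene in percent (x axis), 1 point per member, with point size growing with the member's reads. The grey line and band give the median and the 5th to 95th percentile of all genes tested in steps of GC content, and most members lie below the line, while SNORD17, SNORA71C and SNORA74B lie above it.

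Summed levels were taken per class and library. Box C/D members summed to 1437, 1685 and 1588 CPM in DMSO and to 1848, 1733 and 3025 in Dox, with every Dox library above every DMSO library (1570 ± 125 against 2202 ± 715, SD, n = 3, log2 0.49). Dox 3 made most of that SD, and without it the Dox mean was 1791 CPM (log2 0.19). SNORD3A held 63.9% of the class's reads and SNORD17 held 31.1%. Without these genes the other 51 box C/D members summed to 91.8 ± 8.62 CPM in DMSO and 82.3 ± 16.1 in Dox, and the groups overlapped. Box H/ACA members summed to 431 ± 18.8 CPM in DMSO and 406 ± 40.9 in Dox, overlapping, and the log2 ratio of -0.09 became 0.01 with library totals as the scale. The scaRNAs had 253, 221 and 250 CPM in DMSO and 221, 207 and 146 in Dox, with the first Dox library just above the second DMSO library. The ratio of box C/D to box H/ACA signal was 3.27 to 4.12 in DMSO, 4.33 and 4.01 in Dox 1 and Dox 2, and 8.42 in Dox 3. Without SNORD3A, SNORD17 and SNORA73B it was 0.324 to 0.416 in DMSO and 0.319 to 0.425 in Dox.

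**Figure D3:**
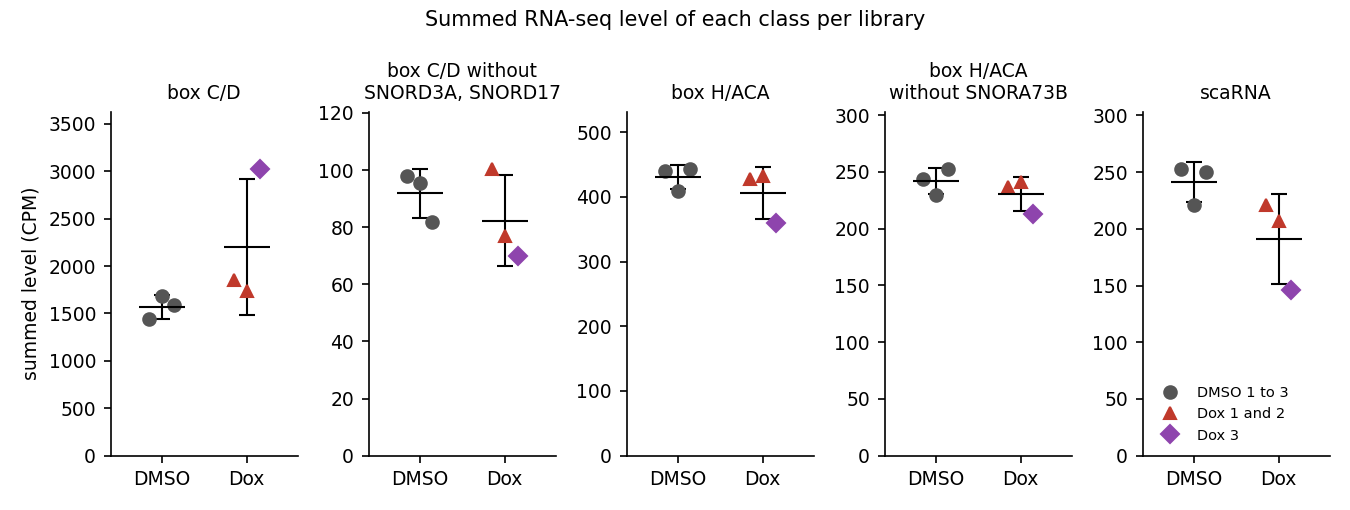
Summed RNA-seq level of each class in CPM per library, with points for single libraries and black lines for the mean ± SD of 3 libraries. The box C/D sum reached 3025 CPM in Dox 3, while the sum without SNORD3A and SNORD17, the H/ACA sums and the scaRNA sum were each lowest in that library.

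Leaving Dox 3 out gave tighter values and few calls. Of 125 members, 1 was called higher and 1 lower (edgeR, adjusted p under 0.05), beside 3.76% of the 20459 genes tested higher and 3.29% lower, so the members' 0.8% in each direction lay under the background. The median log2 fold changes were then -0.05 for box C/D, -0.01 for box H/ACA and -0.15 for scaRNAs. Groups did not overlap for 14 members in the higher direction (11.2%) and 18 in the lower (14.4%), beside 22.2% and 21.2% of all genes.

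SNORD17 was the member called higher, with a 1.22-fold level (log2 0.28 ± 0.07 SE, adjusted p = 0.0303, edgeR, 3 DMSO and 2 Dox libraries). Its host gene SNX5, a sorting nexin, had log2 -0.03 in the same fit. SNORA80E was the member called lower (log2 -0.80 ± 0.23 SE, adjusted p = 0.0442, edgeR), beside -0.06 for its host KHDC4. The second call rests on 31 and 25 reads in Dox. The call on SNORD17 was lost when DMSO 1, DMSO 3 or Dox 2 was also left out (adjusted p = 0.0987, 0.0606 and 0.385, edgeR). Without Dox 2 and Dox 3 the Dox group is 1 library, assumed to vary like the DMSO libraries, which alone give the spread. That on SNORA80E was lost when any of the 3 DMSO libraries or Dox 2 was left out too (adjusted p = 0.0690, 0.0570, 0.0721 and 0.466), and with scaling to library totals (0.0537), while DESeq2's test gave it no adjusted p (unadjusted p = 0.0185).

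Next in order, not called, came SNORA74B (log2 0.35 ± 0.11, adjusted p = 0.0545) and SNORD89 (0.80 ± 0.27, adjusted p = 0.0724) among those higher, and SCARNA21 (-0.28 ± 0.08, adjusted p = 0.0504) and SCARNA7 (-0.33 ± 0.10, adjusted p = 0.0528) among those lower (edgeR). SCARNA21 had 15.2, 15.4 and 15.5 CPM in DMSO, 12.7 and 12.6 in Dox 1 and Dox 2 and 9.91 in Dox 3. Its DMSO libraries had a coefficient of variation of 1.07%, and each Dox library lay below them. The median was 13.2% over all members and 8.65% over those with 600 or more reads, to which SCARNA21 belongs. A coefficient from 3 libraries is itself uncertain, so it is no measure of precision for this gene. SCARNA7 had 56.1, 45.1 and 52.7 CPM in DMSO and 46.0, 35.7 and 19.7 in Dox, with overlap between Dox 1 and DMSO 2. SCARNA5 had 48.9, 41.3 and 45.8 CPM in DMSO and 39.96, 39.0 and 24.9 in Dox without overlap, and its adjusted p without Dox 3 was 0.121. DESeq2's test without Dox 3 called SNORD17 and SNORA74B higher and SCARNA7 and SCARNA21 lower, beside 4.87% and 5.15% of the 20459 genes tested, although its own filter on low means gave an adjusted p to only 27 of the 125 members and to 12129 of all genes.

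**Figure D4:**
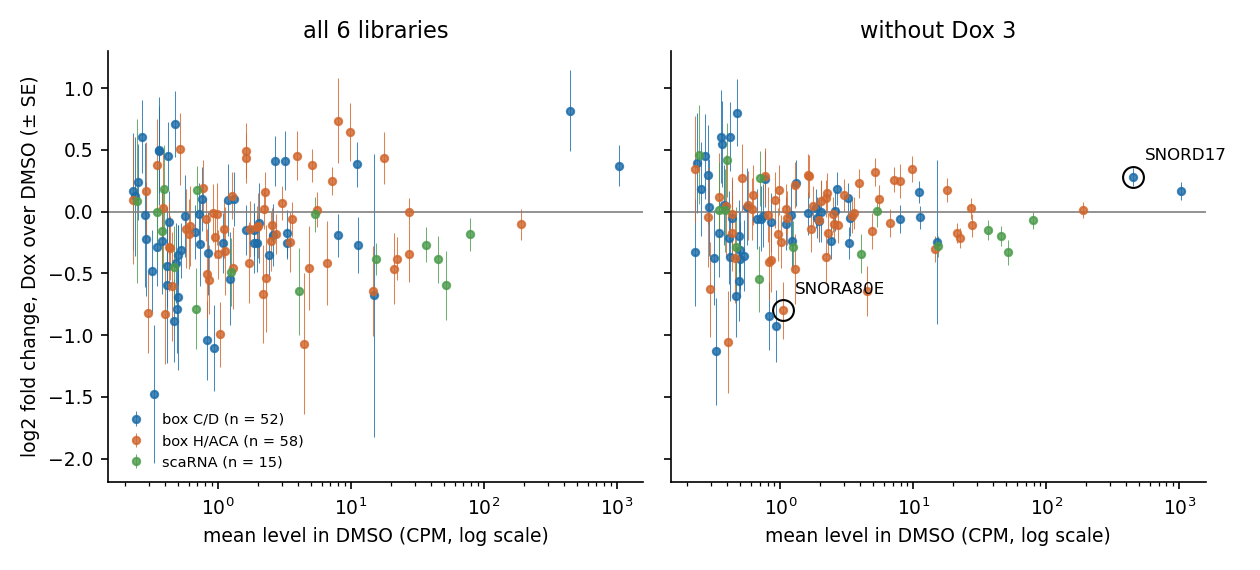
Log2 fold change of Dox over DMSO with its SE (y axis) against mean DMSO level in CPM (log x axis) for the 125 members tested, with all 6 libraries on the left and without Dox 3 on the right. Circles mark the members called, none on the left and SNORD17 and SNORA80E on the right, and the spread of values is narrower on the right.

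RNAs of pre-rRNA processing were followed as a list. Of 15 genes, 8 were members and were tested (SNORD3A, SNORD3B-1, SNORD3B-2, SNORD3C, SNORD13, SNORD14A, SNORD14E and SNORA73B), and none was called with or without Dox 3. The other 7 had no read in any RNA-seq library (SNORD3D, SNORD118, SNORD14B, SNORD14C, SNORD14D, SNORD22 and SNORA73A). Such a count of 0 does not show that the RNA was absent, and the part of alignment and counting in it was not tested. Their median log2 fold change was -0.15 with all libraries and -0.02 without Dox 3. SNORA73B, the U17 RNA, had 197, 179 and 191 CPM in DMSO and 191, 191 and 146 in Dox, so that Dox 1 and Dox 2 lay within the DMSO range. SNORD13, the U13 RNA, had 7.22, 7.33 and 9.30 CPM in DMSO and 7.76, 7.45 and 5.54 in Dox. The U14 genes SNORD14A and SNORD14E had at most 114 and 31 reads in a library.

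The U3 genes are near copies of each other. Over the stretch of SNORD3A shown above, SNORD3B-1, SNORD3B-2 and SNORD3C were each 99.5% identical to it, and 81.8 to 99.7% of the 30-base stretches of the 4 U3 members occurred in another annotated snoRNA gene. Reads were counted only where they aligned to 1 place, so the split among U3 genes is uncertain. SNORD3B-2 had 1219 and 1140 reads in DMSO 1 and DMSO 2 and 74 in DMSO 3, and 1119 in Dox 1 but 81 and 52 in Dox 2 and Dox 3. The gene thus took a high and a low level within each group, and the levels did not follow treatment. SNORD3B-1 had 170, 88 and 67 reads in DMSO and 84, 108 and 37 in Dox, and SNORD3C had 172, 182 and 152 in DMSO and 158, 167 and 145 in Dox, without such a split. In all, 23 of the 125 members shared a 30-base stretch with another annotated gene of these families, 18 of them box H/ACA, 5 box C/D and none scaRNA.

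Related RNAs did not move together in Dox 3. SNORA71A, SNORA71B, SNORA71C and SNORA71D lie in SNHG17 and guide pseudouridylation of ribosomal RNA. SNORA71A had 26.1, 25.9 and 29.998 CPM in DMSO and 27.2, 28.4 and 26.2 in Dox, within 1 range. SNORA71C had 6.46, 9.31 and 8.10 CPM in DMSO and 8.11, 10.8 and 21.2 in Dox, and SNORA71D had 15.4, 18.7 and 19.2 in DMSO and 19.3, 20.9 and 32.3 in Dox. Their host SNHG17 lay 0.57 (log2) above Dox 1 and Dox 2 in Dox 3, beside -0.09 for SNORA71A, 0.68 for SNORA71D and 1.17 for SNORA71C. The 3 sequences printed were 83.2 to 86.7% identical in pairs, with GC contents of 53.7% for SNORA71A and SNORA71D and 57.5% for SNORA71C.

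SNORA74A, in MATR3, and SNORA74B, in ATP6V0E1, went opposite ways. SNORA74A had 29.9, 23.8 and 28.5 CPM in DMSO, 25.6 and 25.2 in Dox 1 and Dox 2 and 13.9 in Dox 3, while SNORA74B had its highest value, 21.2 CPM, in Dox 3. SNORA74D, in the same host as SNORA74A, had 3.76, 3.12 and 3.56 CPM in DMSO and 2.97, 3.83 and 1.85 in Dox. In Dox 3 the distances were -0.86 for SNORA74A, -0.84 for SNORA74D and 0.77 for SNORA74B. The GC contents were 48.5%, 53.2% and 54.7%, so that SNORA74D and SNORA74B were close in GC content and far apart in Dox 3.

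**Figure D5:**
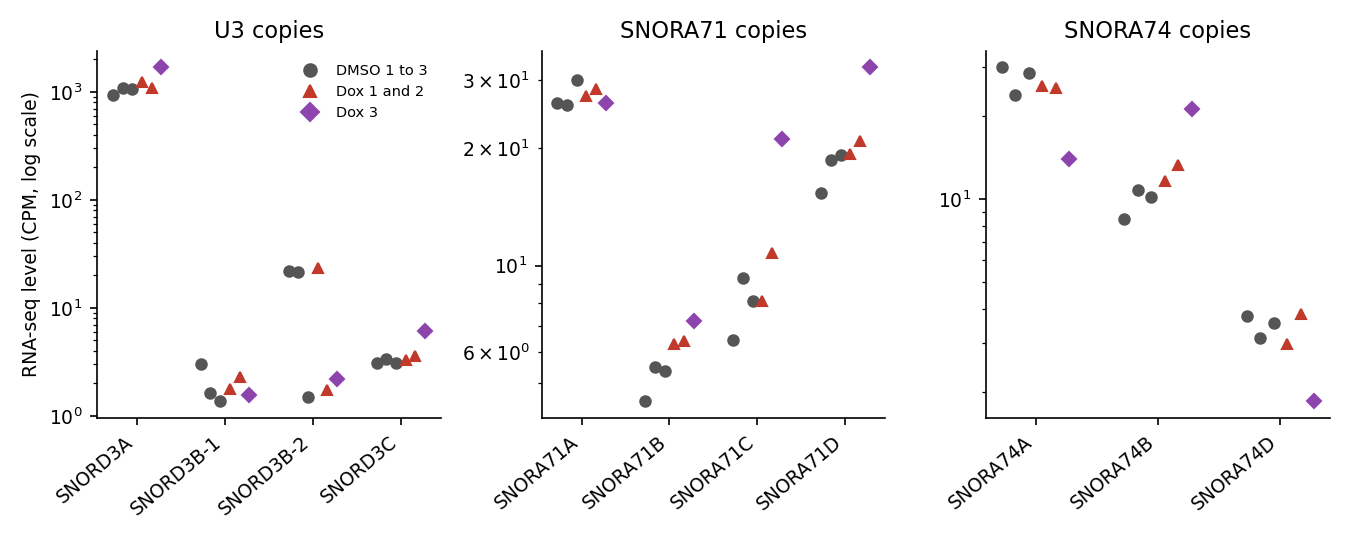
RNA-seq level in CPM (log scale) of the U3, SNORA71 and SNORA74 members, 1 point per library. SNORD3B-2 splits into libraries near 22 CPM and near 2 CPM in both groups, and in Dox 3 SNORA71C, SNORA71D and SNORA74B lie high while SNORA74A and SNORA74D lie low.

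Host genes, taken by position as above, gave a reference for the members they enclose. A place in an intron was not required, and members that overlap an exon of another gene were kept. For the 112 members whose host was tested, in 90 host genes, the median distance of Dox 3 from Dox 1 and Dox 2 was -0.56 for the members and -0.34 for their hosts, and 75 of 112 members lay below their host. Among scaRNAs 13 of 15 lay below their host. In the comparison without Dox 3 the medians were -0.03 for members and -0.05 for hosts, with 59 members below and 53 above. Members of 1 host are not independent, and 16 host genes held more than 1 member.

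Proteins that bind these RNAs were listed as well. None of the 4 box C/D core genes, the 4 box H/ACA core genes or the 14 genes of snoRNP assembly and Cajal bodies was called with all libraries. Without Dox 3, FBL (fibrillarin, the methyltransferase) rose by 0.26 ± 0.07 on the log2 scale (adjusted p = 0.0362, edgeR), 1 of the 4 box C/D core genes, and TCOF1 (treacle, a nucleolar factor of ribosomal RNA transcription, named after its value was seen) rose by 0.41 ± 0.07 (adjusted p = 0.00673, edgeR), 1 of the 14. Of all genes, 3.76% were called higher and 3.29% lower in that fit. FBL had 125, 148 and 139 CPM in DMSO and 161, 167 and 248 in Dox. NOP58, DKC1 and COIL had log2 values of -0.05, 0.09 and 0.01 in that fit and were not called. Of 21 other short structured noncoding RNAs, 12 were tested with all libraries and 11 without Dox 3, and none was called in either fit. RMRP, RPPH1, RN7SK, RN7SL1 and RNU12, 5 of the 21, had no read in any RNA-seq library. In Dox 3, 8 of the 12 were below Dox 1 and Dox 2 (median -0.21).

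Few ribosome footprints fell on the members, at a depth that left most genes with few. The 126 members held 155 Ribo-seq reads in all, and 107 members (84.9%) held none, beside 56.6% of the 19989 other genes with 60 or more RNA-seq reads. Among genes with 600 or more RNA-seq reads, 35 of 43 members (81.4%) and 47.5% of 13335 other genes held none. The difference was not tested, and 14 of the 19 with a read had it in 1 library only. SNORD101 held 61, 5 and 0 reads in DMSO and 1, 1 and 11 in Dox, and its 61 reads were all the member reads of DMSO 1, the shallowest Ribo-seq library. No other member had more than 10. Only SNORD101, SNORA46 and SNORA71B reached 10 reads and were tested. None was called in Ribo-seq, where 0% of 1607 genes were called in each direction and 3.42% were higher and 5.48% lower at an unadjusted p under 0.05, beside none of the 3 members. In translation efficiency (TE, the Ribo-seq change beyond the RNA-seq change) none was called, beside 0% of 1334 genes higher and 0.15% lower, and none passed an unadjusted p under 0.05, beside 7.05% higher and 15% lower of all genes. The value of SNORD101 was log2 -2.55 ± 2.14 SE in Ribo-seq (adjusted p = 0.695, edgeR). A count of 0 in a Ribo-seq library allows up to 3 reads, or 2.99 to 14.3 CPM before scaling. In counts simulated with the depth and spread of these Ribo-seq libraries, 0 of 200 genes changed 8-fold were recovered. Even large changes were thus not detectable, and the absence of calls says nothing about change. The parts of depth and of spread in this were not tested.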

How the data were processed

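RNA-seq and Ribo-seq were measured in 6 cultures, and groups followed the titles in the labels. The authors deposited 1 table of raw counts per gene. Per their methods, linker and ribosomal reads were removed from Ribo-seq, reads were mapped with STAR to GRCh38, and uniquely aligned reads were kept. The labels name GRCh37 and Ensembl 75, and the strand setting is not given in the sources used here. A second deposited file paired gene identifiers with symbols, and its other columns, the authors' own RiboDiff comparison (dispersion, p-values, TE and its change), were not used. The counts of spike-in rows and of unassigned reads stayed out of library sizes, and in the RNA-seq libraries rows that name no human gene held 69.2 to 94.1% of all counts.

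Identifiers were matched to GENCODE 44 on GRCh38 (58207 of 58735), which gave positions, lengths, GC contents and sequences. SNORA74C-2 had no match. Some sequences are not reported here. The table holds no coordinates, so positions are those of the identifiers, not of the reads. The 2 genes with the symbol SNORA72 were kept apart by identifier.

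Counts were tested with edgeR 4.0.16 (quasi-likelihood F-test, TMM scaling, a filter of 10 or more reads in 3 or more RNA-seq libraries, and of 10 or more over the 6 libraries for Ribo-seq and for each assay of TE, which was tested as an interaction), with Benjamini-Hochberg adjustment over all genes at 0.05. DESeq2 1.42.0 was an alternative, beside other scalings and filters, a replicate block and each library left out. CPM values were TMM-scaled, and log2 levels carry a pseudocount of 0.1 CPM. Simulated counts with 200 changed genes were tested first. At an 8-fold change 193 of 200 were recovered over all 6 libraries, 195 without Dox 3 and 0 in Ribo-seq. At a 2-fold change the numbers were 103, 168 and 0. In the measured counts the RNA-seq fit with all 6 libraries called none of the 20552 genes tested. EIF4EBP1 was among those not called (log2 0.79, adjusted p = 0.303, edgeR). Whether the recovery over all 6 libraries holds for measured counts, where the distance of Dox 3 moved with base composition, was not tested.

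Named were, per class, the members with the highest level per length in DMSO (4, 4 and 3), the members called in the test with all libraries and without Dox 3 (where fewer than 3 were called in a direction, also the 3 with the smallest p), the list of pre-rRNA processing RNAs, the 5 members with the most Ribo-seq reads, the genes beside the threshold, and FBL, NOP58, DKC1, COIL and EIF4EBP1. Other names were chosen after their values were seen. The members, lists and tests were chosen with earlier results of these data known. The limit of 3 reads for a count of 0 covers counting error only, whereas SD and SE values also hold the spread between libraries.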

Additional observations from a re-analysis of the deposited data

How the results depend on the processing

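With all 6 RNA-seq libraries, no member was called higher or lower under any other scaling, filter or test that was tried. Leaving out each library in turn gave 0 to 1 members called higher and 0 to 1 called lower, the calls coming without Dox 3 (SNORD17 and SNORA80E). Counts of calls in Ribo-seq and TE were 0 in both directions under each alternative. Of the fold changes of named genes under these alternatives, 373 kept their direction or moved by less than their SE, 2 moved further (SNORD3B-1 without DMSO 1 and SNORD105B without Dox 3) and 2 became calls.

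The calls made without Dox 3, 1 higher and 1 lower, depended on the other settings, all of them chosen after the data were seen. Members called higher numbered 2 with library totals and 2 with DESeq2's test. Members called lower numbered 2 with DESeq2 size factors, 0 with library totals, 2 with TMM from protein-coding genes, 2 with DESeq2's test and 4 without a filter. With a further library left out they ranged from 0 to 6 higher and from 0 to 10 lower. They were 6 and 8 without DMSO 2, 3 and 10 without Dox 1, 0 and 1 without DMSO 3, and 0 and 0 without DMSO 1 or without Dox 2. Those without Dox 1 or Dox 2 rest on a single Dox library, assumed to vary like the DMSO libraries, so the 10 has no replicate behind it in Dox. With both Dox libraries kept, the ranges were 0 to 6 and 0 to 8. The cause of this dependence was not tested. Of all genes, 3.76% were called higher and 3.29% lower in the fit without Dox 3, and 4.87% and 5.15% with DESeq2's test. Shares of all genes under the other settings are not given here, so those counts are no result about the members. The replicate block, fitted on the numbers in the labels, gave 0 members called higher and 0 lower with all libraries, as in Ribo-seq and TE. Whether samples of the same number share more than that number is not known. Their deviations from the group means correlated at 0.28, -0.23 and 0.02, and 1 of 3 DMSO libraries correlated best with the Dox library of its own number. With 3 libraries in a group such correlations cannot decide whether the samples were paired.

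The log2 ratio of summed levels kept its direction under every scaling except for box H/ACA with library totals (0.01). It ranged from 0.19 to 0.63 for box C/D, from -0.13 to -0.004 for box H/ACA and from -0.45 to -0.17 for scaRNAs when a library was left out, and the values nearest 0 (0.19, -0.004 and -0.17) were those without Dox 3. The spread between the Dox libraries is made largely by Dox 3, so it gives no measure of the move without it.

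Depth limits the 83 members under 600 reads, and in Ribo-seq every member. No outlier test was run, since groups held 3 libraries.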
